A study of Mus musculus with 26 samples.

Results

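In unstressed NIH3T3 cells, 404 of 6399 pairs of neighbouring genes already had measurable read-in, that is, RNA attributed to transcription running from one gene into the next. Each pair holds an upstream gene and the downstream gene that follows it on the same strand. For each pair the authors deposited a read-in estimate, a ratio that they computed per RNA library for transcription entering the downstream gene from the upstream one; the sources used here do not give its formula. The 404 pairs are those with a finite estimate of 0.02 or more in all 4 unstressed RNA libraries, and 5155 of the 6399 pairs had a finite estimate in all 4. They hold 786 distinct genes, 22 of which are upstream in one pair and downstream in another. Pairs are written below as upstream>downstream.

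NIH3T3 is an established line of mouse embryonic fibroblasts. PolyA-selected RNA was sequenced in 2 experiments, each with its own control of 2 libraries. The heat experiment compared its control with 2 h at 44 °C and with 8 h at 42 °C. The other experiment compared a shared control with H2O2 (oxidative stress) for 2 h and 7 h and with KCl (osmotic stress) for 2 h and 7 h, and for the same 5 groups ribosome-protected footprints were sequenced too. Every group had 2 libraries per assay, the labels do not say whether these came from separate cultures, and p-values therefore measure only the spread between libraries, which may be technical. The stresses of one experiment share their control libraries, so their differences from control are not independent of each other.

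RNA polymerase II normally releases the DNA soon after the nascent RNA has been cut at the polyadenylation signal. When cutting or release fails, the polymerase runs on past the gene end, and the long transcripts it makes are called downstream-of-gene transcripts, or DoGs; heat, oxidative and osmotic stress are known to raise them. Where a DoG reaches the next gene on the same strand, its RNA adds to the reads counted for that gene, which is called read-in, although the ribosome need not translate it.

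RNA libraries held 24441877 to 45244430 expected counts, that is, read counts that RSEM estimates per gene and that need not be whole. Footprint libraries held 1460751 to 5168537, the lowest and the highest both being H2O2 2 h libraries. Replicates of each group differed by more than counting noise. All 11 fibroblast markers were above 1 TPM (a transcript level scaled by gene length and library size) in every RNA library. Of 9 markers of leukocytes, epithelium and endothelium, Adgre1 was listed at 0 throughout and their summed level ran from 8.71 to 48.95 TPM, of which the lysosomal and macrophage protein Cd68 made 5.32 to 44.68. The stress genes responded: Hspa1b rose in both heat regimes (log2 fold changes 2.92 and 6.41), Hmox1 rose with H2O2 (3.26 and 2.97 at 2 h and 7 h), and the osmolyte transporter Slc5a3 rose with KCl (1.97 and 2.32).

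The members lay close together on the chromosome. Gene positions from RefSeq (GRCm38.p6, the assembly also called mm10, which the submitters' processing notes name) matched 392 of the 404 pairs. The median distance from the end of the upstream gene to the start of the downstream gene was 2505.5 bases, against 35273 bases in 4587 matched pairs that were finite in all 4 controls but outside the rule. Under 1000 bases apart were 117 members (29.8%) and 162 of the others (3.53%), and 4 member pairs overlapped. Seen from the distance, the members made up 41.9% of pairs under 1000 bases apart (117 of 279), 17.5% of those 1000 to 5000 bases apart (116 of 662), 3.46% of those 5000 to 50000 bases apart (70 of 2026), and 4.42% of those farther apart (89 of 2012). The downstream gene was a long non-coding RNA in 11 members (2.81%) and in 24 of the others (0.523%).

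**Figure D1:**
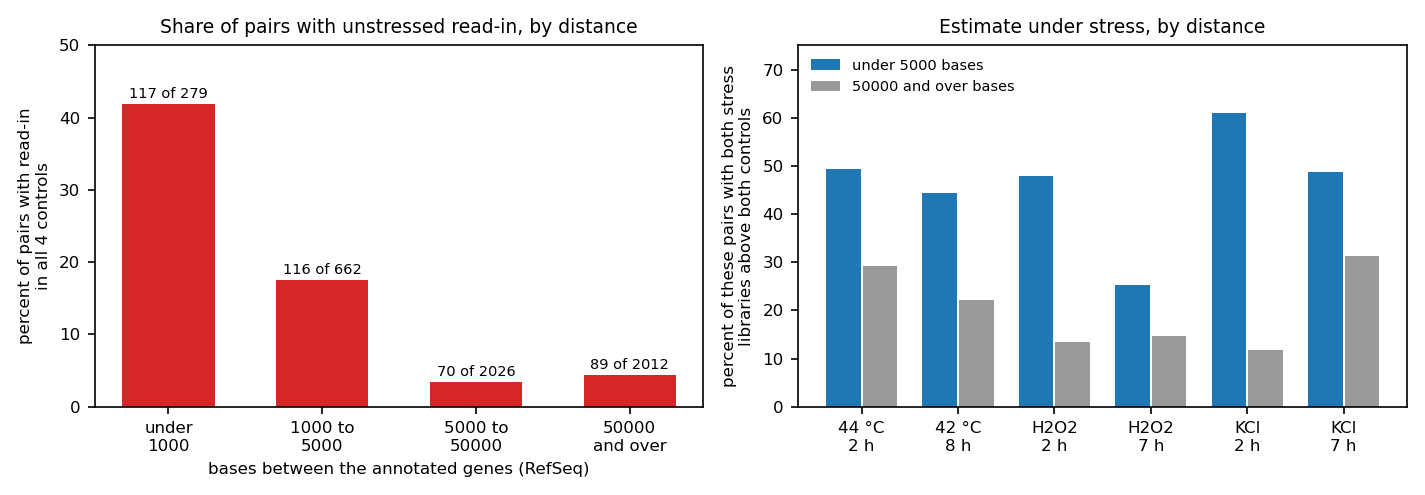
Left: percent of pairs, among those with a finite estimate in all 4 controls, that had an estimate of 0.02 or more in all 4, by the distance in bases between the annotated genes; the counts stand on the bars. Right: percent of members under 5000 bases apart (blue) and 50000 or more apart (grey) whose 2 stress libraries both had a higher estimate than both controls; the share is higher for close pairs in each of the 6 stresses, for example 60.96% against 11.76% in KCl at 2 h.

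Some of these neighbours are separated by so little DNA that the whole stretch between them can be read. The 8 stretches below come from RefSeq (GRCm38.p6). Mafg>Sirt7, near the threshold, and Ccdc28b>Iqcc, among the 3 largest increases in H2O2 at 2 h, fall under the rule for named pairs, and the other 6 were chosen after the values had been seen, as short gaps whose read-in the authors called in 3 or 4 controls. Each runs 5′ to 3′ on the strand of the genes from the last 30 bases of the upstream gene to the base before the annotated start of the downstream gene. Capitals mark AATAAA or ATTAAA, the hexamers that signal cleavage and polyadenylation, where one lies in those last 30 bases.
Mrps34>Nme3 (chr17:24896260-24896499, plus strand): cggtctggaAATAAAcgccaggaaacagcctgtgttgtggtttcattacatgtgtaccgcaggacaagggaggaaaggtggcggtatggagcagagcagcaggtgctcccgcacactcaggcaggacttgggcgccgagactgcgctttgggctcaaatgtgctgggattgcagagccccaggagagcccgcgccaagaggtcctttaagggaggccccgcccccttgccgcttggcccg
Prrt2>Pagr1a (chr7:127017353-127017571, minus strand): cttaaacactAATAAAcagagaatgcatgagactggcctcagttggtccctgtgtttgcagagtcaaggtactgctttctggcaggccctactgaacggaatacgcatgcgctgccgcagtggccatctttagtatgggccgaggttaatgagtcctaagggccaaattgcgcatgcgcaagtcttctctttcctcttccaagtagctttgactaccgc
Gpatch3>Gpn2 (chr4:133584213-133584372, plus strand): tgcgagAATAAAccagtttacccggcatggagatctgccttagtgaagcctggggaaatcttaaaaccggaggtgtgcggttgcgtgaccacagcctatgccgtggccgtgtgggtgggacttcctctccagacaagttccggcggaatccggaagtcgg
Slc12a4>Lcat (chr8:105943403-105943619, minus strand): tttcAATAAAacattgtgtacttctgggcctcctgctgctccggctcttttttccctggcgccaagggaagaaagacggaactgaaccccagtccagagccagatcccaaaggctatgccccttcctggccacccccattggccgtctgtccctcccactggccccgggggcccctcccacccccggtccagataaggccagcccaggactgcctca
Mafg>Sirt7 (chr11:120625015-120625146, minus strand): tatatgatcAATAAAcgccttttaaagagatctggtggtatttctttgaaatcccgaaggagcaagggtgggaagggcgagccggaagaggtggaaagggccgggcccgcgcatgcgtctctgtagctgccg
Ccdc28b>Iqcc (chr4:129619094-129619303, minus strand): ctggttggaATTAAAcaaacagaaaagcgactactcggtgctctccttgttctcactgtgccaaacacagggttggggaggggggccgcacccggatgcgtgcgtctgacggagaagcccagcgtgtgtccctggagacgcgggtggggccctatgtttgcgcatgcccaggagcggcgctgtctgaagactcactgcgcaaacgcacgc
Rnu7>Grcc10 (chr6:124741070-124741254, minus strand): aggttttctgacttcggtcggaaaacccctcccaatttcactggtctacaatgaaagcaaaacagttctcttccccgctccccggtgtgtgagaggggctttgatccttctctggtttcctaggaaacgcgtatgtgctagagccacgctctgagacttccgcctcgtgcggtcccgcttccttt
Slc39a7>H2-Ke6 (chr17:34028056-34028295, minus strand): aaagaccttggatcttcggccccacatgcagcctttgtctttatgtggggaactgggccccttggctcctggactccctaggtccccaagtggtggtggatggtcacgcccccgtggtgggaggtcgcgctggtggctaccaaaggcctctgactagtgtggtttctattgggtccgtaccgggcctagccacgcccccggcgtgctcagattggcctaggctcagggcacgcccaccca
Of all 12 members with gaps of up to 220 bases and a sequence at hand, printed or not, 9 had a hexamer in the last 30 bases of the upstream gene. So did 9 of 11 other pairs with gaps as short, so the presence of these letters did not separate members from other pairs. In 32851 RefSeq windows of 300 bases around gene starts, 17.3% held AATAAA or ATTAAA anywhere on the strand of the gene and 28.2% on either strand. Rnu7, which shows none, encodes the U7 small nuclear RNA that guides histone pre-mRNA processing; its own RNA is not polyadenylated, and it was listed at 0 TPM in all 16 polyA-selected libraries.

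Because the control estimates chose the members, their control levels are a description. The mean estimate over the 4 controls ranged from 0.0237 to 84.5 with a median of 0.227; 126 pairs lay under 0.1 and 77 over 1. The ranking of members was alike in the replicate libraries (Spearman rho across pairs 0.923 in the heat control and 0.907 in the other) and between the mean of one control and of the other (0.918), with the pairs sharing their libraries. Replicate 2 gave the higher estimate in 271 and 306 of the 404 pairs in the heat and the H2O2 and KCl controls. At the edge of the rule, the lowest control estimate was 0.02005 for Ctdnep1>Gabarap, 0.0201 for Mafg>Sirt7 and 0.0202 for Nploc4>Faap100. Just outside were Timm44>Ctxn1 (0.0199), Disp3&Ptchd2>Fbxo44 (0.0197) and Amdhd2>Pdpk1 (0.0197).

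High estimates were found mostly at quiet downstream genes. Members had a median control level of 50.7 TPM upstream and 5.66 TPM downstream, against 36.5 and 27.4 TPM in the other finite pairs. Over 393 members the Spearman rho of the mean control estimate with downstream TPM was -0.722, and with upstream TPM -0.00533; the estimate and the TPM values come from the same RNA libraries. The downstream gene was under 1 TPM in 98 members, and in 61 of 393 it was above its upstream neighbour. The highest mean estimate was that of Ehd4>Sptbn5 (573 bases apart), an endocytic membrane protein followed by a beta-V spectrin. Its heat controls read 69.6 and 69.6 and its H2O2 and KCl controls 99.4 and 99.4, with Sptbn5 RNA at no more than 0.11 TPM. Values equal to the last deposited digit in both replicates of a control occurred in 4 members of either control, all with a downstream gene at 0.43 TPM or less in the controls. Pgp>Bricd5, Srm>Masp2, Wdr18>Grin3b and Cenpq>Glyatl3 followed; Masp2 is a complement protease best known from liver, and Grin3b a subunit of neuronal NMDA receptors.

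The sixth of these, Tnfrsf18>Rnf223, lay 101620 bases apart, and its upstream gene was all but silent. Tnfrsf18, a receptor of the tumour necrosis factor family, was at 0.14 and 0 TPM in the heat control and 0.13 and 0.08 TPM in the other, while the estimates were 29.2 and 30.2, and 17.2 and 23.9. It was one of 12 members whose upstream gene was under 1 TPM in the controls. Their median distance was 40914.5 bases, and 6 lay 50000 or more bases apart. The authors' DoG caller named 5 of these 12 in a control, against 256 of the 385 members with an upstream gene at 1 TPM or more.

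The authors also deposited yes-or-no calls of DoGs and of read-in per library. Of the 404 members, 265 were called a DoG in at least 1 control and 56 in all 4. In single control libraries the DoG calls covered 32.9% to 39.4% of members and 24.2% to 27.9% of all pairs. Read-in was called in at least 1 control for 54 members, of 65 such pairs in the whole series, and in all 4 for 19. Another 90 members were called only under stress, 260 in no library and 10 in all 16. The calls went to close pairs: of 233 members under 5000 bases apart, 51 were called read-in in a control, against 3 of 159 farther apart. The 10 with calls in every library included Zgpat>Lime1, whose downstream gene encodes an adaptor of lymphocyte signalling, with estimates of 0.886 and 1.32 in the heat control and 0.772 and 0.975 in the other; Lime1 never exceeded 5 footprint counts. Lrch4>Sap25 (1.05 and 1.05, and 0.654 and 0.947) and Hoxa7>Mira, in which a Hox gene is followed by a non-coding RNA, were called as often. Ctdnep1>Gabarap was called in all 16 although its estimate lay at the edge of the rule (0.0208 and 0.0217, and 0.02005 and 0.0324); Gabarap, an autophagy protein that tags membranes, is an abundant mRNA itself, at 564 and 592 TPM in the heat control.

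Most members had a higher mean estimate under stress than in the control, with the largest median difference in KCl at 2 h and the smallest in H2O2 at 7 h. Since the rule used the controls, these differences have no test. The median of the log2 difference between stress and control means (after adding 0.01) was 0.24 at 44 °C, 0.29 at 42 °C, 0.27 and 0.08 in H2O2 at 2 h and 7 h, and 0.57 and 0.45 in KCl at 2 h and 7 h. Replicate 2 of each control read higher than replicate 1, and the medians moved with the one kept: without replicate 1 of the H2O2 and KCl control they were 0.14, 0.43 and 0.28 in H2O2 at 2 h and KCl at 2 h and 7 h, and without replicate 2 they were 0.60, 0.87 and 0.83. In H2O2 at 7 h the sign itself turned, from -0.15 without replicate 1 to 0.39 without replicate 2. At 44 °C the median was 0.15 without heat control replicate 1 and 0.39 without replicate 2. At 42 °C it was 0.46 without heat control replicate 2 and 0.11 without 42 °C replicate 2. At 44 °C both stress libraries lay above both controls in 170 of 403 members and below both in 64, where all finite pairs gave 23.6% and 4.7%. At 42 °C the counts were 150 and 46 of 400, against 20.5% and 4.87%. In H2O2 they were 159 and 62 of 403 at 2 h (31.8% and 2.74% of all pairs) and 95 and 88 of 398 at 7 h (14.9% and 5.53%). In KCl they were 189 and 45 of 393 at 2 h (26.1% and 3.79%) and 174 and 46 of 391 at 7 h (18.9% and 3.83%). The members were chosen for control values above 0.02 and many other pairs stand at 0, where an estimate cannot fall, so nothing is read from these shares; they are shown side by side in the plot of pairs above and below both controls.

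**Figure D2:**
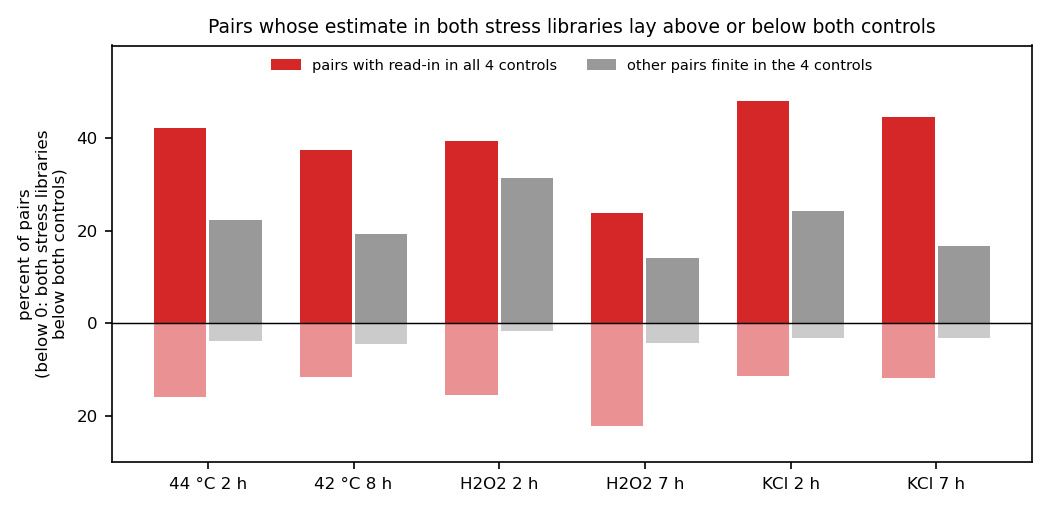
Percent of pairs whose 2 stress libraries both lie above (bars over 0) or below (paler bars under 0) both control libraries, for members and for the other pairs with finite estimates, in each stress. Among members, KCl 2 h has the highest share above (189 of 393) and H2O2 7 h the highest share below (88 of 398).

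Under stress the estimate mostly stayed at or above the threshold of the rule. Both stress libraries kept an estimate of 0.02 or more in 386 of 403 members at 44 °C (95.8%), 375 of 400 at 42 °C (93.8%), 382 of 403 in H2O2 at 2 h (94.8%), 332 of 398 at 7 h (83.4%), 351 of 393 in KCl at 2 h (89.3%) and 345 of 391 at 7 h (88.2%). All 16 libraries did so in 260 of the 381 members that were finite throughout (68.2%). In 22 members some stress library had an infinite estimate and in 2 a missing one; such values were left out of the counts. The order of members under stress followed that of the controls, with a Spearman rho across pairs from 0.764 in KCl at 2 h to 0.885 at 42 °C.

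Close pairs were above their controls more often than distant ones. In KCl at 2 h, 139 of 228 members under 5000 bases apart lay above both controls (60.96%), against 10 of 85 members 50000 or more bases apart (11.76%), with median log2 differences of 0.91 and 0.03. In H2O2 at 2 h the shares were 47.84% (111 of 232) and 13.48% (12 of 89), with medians of 0.43 and -0.13. At 44 °C they were 49.36% and 29.21%, at 42 °C 44.4% and 22.09%, and in KCl at 7 h 48.7% and 31.33%. In H2O2 at 7 h they were 25.33% and 14.77%, and the medians were alike (0.08 and 0.07). The classes of distance were set after the values had been seen, and their difference was not tested. Their control levels differed too, with a median control estimate of 0.403 in the close and 0.147 in the distant pairs.

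Hnrnpul1>Ccdc97 had the largest increase over the control mean at 44 °C, and Tnpo2>Fbxw9 was among the 3 largest both there and in KCl at 2 h, where Setd1a>Hsd3b7 was first (log2 difference 4.69). Hnrnpul1>Ccdc97 (2125 bases; an RNA-binding protein of the hnRNP family and a coiled-coil protein) stood at 0.0388 and 0.0473 in the heat control; the shorter heat gave 0.493 and 0.433 and the longer 0.126 and 0.143. In the other experiment it read 0.0775 and 0.0711 in the control, 0.707 and 0.623 in H2O2 at 2 h, 1.13 and 0.946 in KCl at 2 h and 0.0563 and 0.0689 after 7 h of H2O2. No library of the first 4 of these stress groups overlapped its control, and the authors called its read-in in 10 stress libraries and no control. Tnpo2>Fbxw9 (2533 bases; a nuclear import receptor and an F-box protein) was high in the same groups, with 0.0410 and 0.0457 in the control, 0.406 and 0.458 in H2O2 at 2 h, 1.08 and 1.14 in KCl at 2 h and 0.0161 and 0.0378 after 7 h of H2O2.

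Other pairs are named for other groups. Aspscr1>Lrrc45 (4440 bases; a tether of glucose transporter vesicles and a centrosomal linker protein) read 0.0290 and 0.0325 in the control, 0.778 and 0.658 in H2O2 at 2 h and 0.378 and 0.285 in KCl at 2 h. At 7 h of H2O2 it read 0.0595 and 0.0552, and 44 °C gave 0.0643 and 0.0395 over a heat control of 0.0242 and 0.0203. Ndufc1>Mgarp, a respiratory chain subunit followed by a mitochondrial protein, was highest at 42 °C, with 1.39 and 1.43 over a control of 0.0373 and 0.0547, while 44 °C gave 0.0600 and 0.246. Rps18>B3galt4, a ribosomal protein followed by a galactosyltransferase, read 0.0264 and 0.0306 in the control and 0.563 and 0.499 at 42 °C. In both pairs the 42 °C libraries stood clear of the controls. Pltp>Neurl2 read 0.0726 and 0.154 in the control and 1.204 and 1.32 at 7 h of H2O2; its upstream gene, a phospholipid transfer protein, rose from 37.7 and 33.2 to 450.0 and 436 TPM (3.72, SE 0.10, adjusted p 4.95e-13).

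The 3 largest increases over control in KCl at 7 h were in pairs at most 1998 bases apart. Nploc4>Faap100 (1051 bases; an adaptor of the segregase p97 and a subunit of the Fanconi anaemia core complex, which repairs DNA crosslinks) read 0.0424 and 0.0318 in the control, then 0.294 and 0.282 at 2 h of KCl, and 0.823 and 0.781 by 7 h. Hdgf>Mrpl24 (1998 bases; a growth factor and a protein of the mitochondrial ribosome) read 0.0258 and 0.0482, then 0.312 and 0.300 and 0.751 and 0.764, while H2O2 at 7 h gave 0.00869 and 0.0184. Setd1a>Hsd3b7 (486 bases; a histone H3 lysine 4 methyltransferase and an enzyme of bile acid synthesis) was highest at the earlier time, with 0.0503 and 0.0499 in the control, 1.53 and 1.56 at 2 h and 0.696 and 1.01 at 7 h. In all 3 pairs the KCl libraries at both times lay above the controls.

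**Figure D3:**
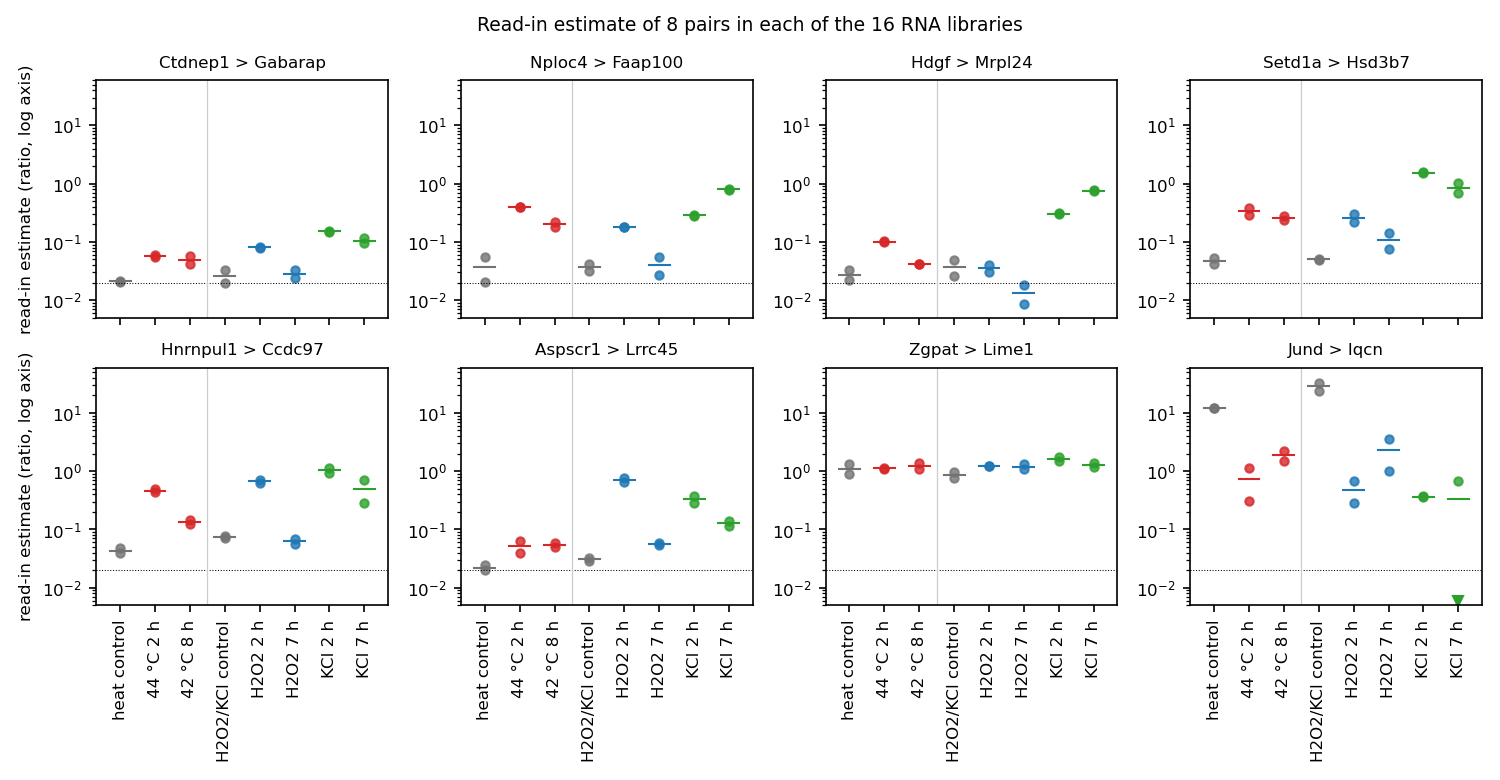
Read-in estimate (log axis) of 8 member pairs in each of the 16 RNA libraries; points are libraries, bars are group means, the dotted line is the threshold of 0.02 and a triangle marks an estimate of 0. Hnrnpul1>Ccdc97 and Aspscr1>Lrrc45 are highest in H2O2 or KCl at 2 h, Nploc4>Faap100 and Hdgf>Mrpl24 in KCl at 7 h, Zgpat>Lime1 stays near 1, and Jund>Iqcn is lower in every stress.

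Jund>Iqcn was among the 3 largest decreases in 5 of the 6 stresses. The pair (704 bases apart; a subunit of the transcription factor AP-1 and an IQ-motif protein) had estimates of 12.03 and 12.03 in the heat control and 24.1 and 33.1 in the other. They were 1.14 and 0.309 at 44 °C, 0.677 and 0.283 in H2O2 at 2 h and 0.371 and 0.362 in KCl at 2 h. Over the same groups Iqcn RNA went from 0.02 and 0.02 TPM in the control to 1.74 and 2.06 in H2O2 and 2.27 and 2.27 in KCl, so a lower estimate stood beside a higher downstream level. Iqcn had no more than 2 footprint counts in any of the 10 libraries.

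Differences between stress groups were tested with limma on log2(estimate + 0.01). They set no group against the controls, but the control libraries enter the filter and the shared estimate of spread. Members pass the filter, above 0.01 in at least 2 libraries, by their controls. Other pairs may pass only by groups where they are high. The shares of all pairs are therefore not an even background for the members. Few members differed between the heat regimes: of 399 tested, 0 were higher and 2 lower at 42 °C than at 44 °C (all pairs tested: 3.93% and 3.02%). Neither passed when any one of the 4 libraries of these groups was left out, and with downstream genes of 1 TPM or more 14 were higher and 8 lower. Pdlim2>Ccar2 read 0.153 and 0.126 at 44 °C and 0.0192 and 0.0320 at 42 °C, a log2 difference of -2.09 (SE 0.33, adjusted p 0.0410), and the other was Notch4>Gpsm3. With time in H2O2 more members were lower than higher: at 7 h, 15 of 382 were higher than at 2 h (3.93%) and 52 lower (13.6%), where all pairs gave 2.01% and 24.4%. In KCl 17 were higher and 23 lower at 7 h (2.74% and 18.9%). Between the agents, 10 were higher and 18 lower in H2O2 than in KCl at 2 h (6.71% and 8.99%), and 7 and 43 at 7 h (2.22% and 7.64%). Leaving out single libraries lowered these counts: the 67 calls between H2O2 times became 24 and 25 without H2O2 2 h replicates 1 and 2 and 32 without H2O2 7 h replicate 1, and the 40 between KCl times became 21 (12 higher and 9 lower) and 15 (9 and 6) without KCl 2 h replicates 1 and 2. The 28 calls between agents at 2 h became 5 and 7 without H2O2 replicates 1 and 2 and 17 (11 higher and 6 lower) and 8 without KCl replicates 1 and 2. The 50 at 7 h became 30 without H2O2 replicate 1 and 31 without KCl replicate 2.

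The lowest adjusted p between times of H2O2 was that of Tnfrsf18>Rnf223, which read 5.04 and 4.07 early and 51.3 and 62.4 at 7 h, a log2 difference of 3.64 (SE 0.23, adjusted p 1.77e-04). Tesk2>Mutyh, a kinase followed by a DNA glycosylase that repairs oxidised bases, moved the other way, from 0.506 and 0.627 to 0.0124 and 0.0177 (-4.52, SE 0.55, adjusted p 0.00205). Aspscr1>Lrrc45 also fell between these times (-3.43, SE 0.34, adjusted p 8.69e-04). In KCl, Pisd>Rbks, Pask>Mterf4 and Pitpnb>Mn1 had the lowest adjusted p between times. Pisd>Rbks, a mitochondrial lipid enzyme followed by ribokinase, was listed at 0 in both libraries at 2 h and read 0.512 and 1.41 at 7 h (adjusted p 0.00102). At 7 h, Hdgf>Mrpl24 was lower in H2O2 than in KCl by a log2 difference of -5.06 (SE 0.40, adjusted p 0.00114).

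The upstream genes themselves fell more often than they rose at 2 h of H2O2 or KCl. Their RNA was tested with edgeR's quasi-likelihood test with Benjamini-Hochberg adjustment over all genes, and a call below means an adjusted p under 0.05. In H2O2 at 2 h, 70 of 394 upstream genes were higher and 155 lower, against 27.3% and 26.5% of all genes, with a median log2 fold change of -0.12. In KCl at 2 h, 85 were higher and 150 lower (27.2% and 27% of all genes). The split was closer at 7 h, with 134 higher and 160 lower in H2O2 (39.4% and 31.1%) and 142 and 156 in KCl (37.2% and 31.6%). Heat gave 143 higher and 146 lower of 388 at 44 °C (35.4% and 35.7%) and 139 and 139 at 42 °C (31.7% and 31.9%). A limma fit of log2(TPM + 1), which is not rescaled between libraries, moved the balance to 67 higher and 210 lower at 42 °C and to 54 and 200 in KCl at 2 h. In that fit all genes together had a median of -0.16 at 42 °C and -0.07 in KCl at 2 h.

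Among called upstream genes with an average log2 CPM (counts scaled by library size) of at least 1, the largest increases at 44 °C were those of Hsph1 and Zmym6, a zinc finger protein gene (1.55, SE 0.06, adjusted p 6.53e-11). Hsph1, a co-chaperone of the HSP110 family, went from 96.8 and 102 TPM to 791 and 861 after the shorter heat (2.99, SE 0.06, adjusted p 8.06e-14) and 626 and 654 after the longer. The HSP40 protein Dnajb4 rose at 42 °C by a log2 fold change of 2.05 (SE 0.04). In H2O2 at 2 h the prostaglandin receptor Ptger4 rose by 3.74 (SE 0.11), and the homeobox genes Hoxa10 and Hoxa9 changed by -2.13 (SE 0.08) and -2.27 (SE 0.10). At 7 h of H2O2 the matrix protein Emilin1 changed by -2.86 (SE 0.07). Tnfrsf18 rose there from 0.13 and 0.08 to 30.3 and 27.4 TPM, while its downstream neighbour Rnf223 changed by -0.67 (SE 0.23). The stomatin-like gene Stoml1 changed by -1.97 (SE 0.11) in KCl at 7 h.

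Downstream RNA was higher more often than lower at the 2 h times. At 44 °C, 200 of 367 downstream genes were higher than in the control and 65 lower, and in H2O2 at 2 h 176 and 77 of 386. In KCl at 2 h the counts were 158 and 88. The later groups were closer to balance, with 109 and 121 at 42 °C, 132 and 108 in H2O2 at 7 h and 143 and 108 in KCl at 7 h. On log2(TPM + 1) the splits were 72 and 177 at 42 °C (median -0.20, where all genes had -0.16), 111 and 121 in H2O2 at 7 h and 121 and 125 in KCl at 7 h, so the side with more calls in these groups depends on the scaling. The shares of all genes called are those given for the upstream genes. The control libraries chose the pairs and the estimate is tied to downstream RNA, so these counts are a description. When the pairs were chosen by the other experiment's 2 controls instead, 234 of 425 downstream genes were higher and 77 lower at 44 °C (55.06% and 18.12%), 252 and 107 of 541 in H2O2 at 2 h (46.58% and 19.78%), and 218 and 121 in KCl at 2 h (40.3% and 22.37%).

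**Figure D4:**
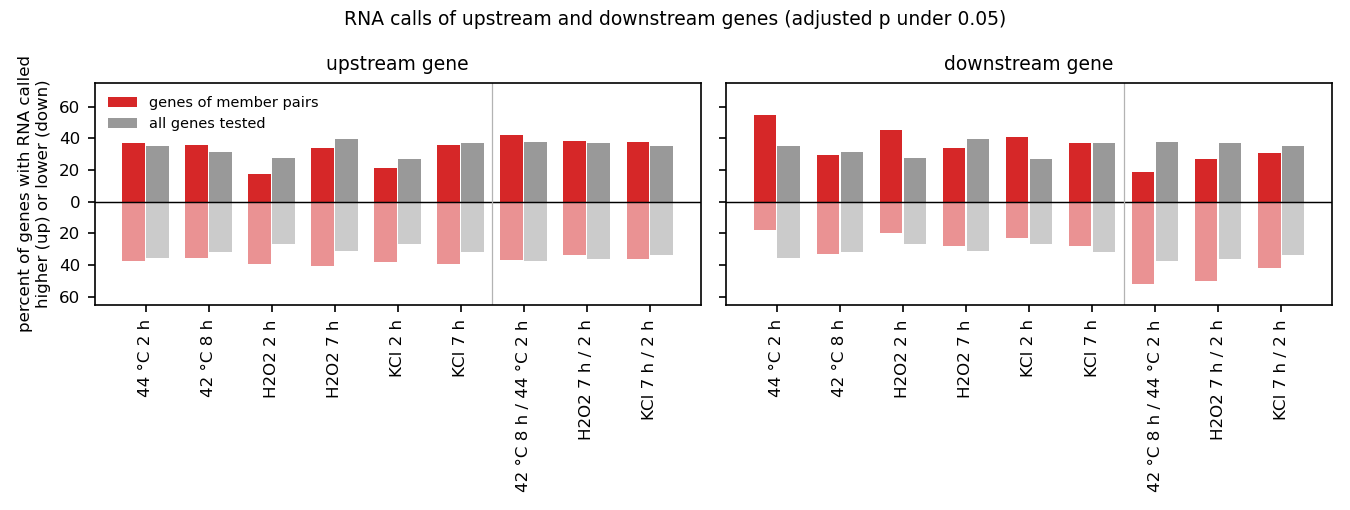
Percent of upstream genes and of downstream genes of the members, and of all genes tested, that were higher or lower at an adjusted p under 0.05 (edgeR) in 9 contrasts. Downstream genes are higher in 200 of 367 cases at 44 °C and lower in 191 between 42 °C and 44 °C, while upstream genes in H2O2 at 2 h are higher in 70 and lower in 155.

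Between stress groups, where the rule used no library, downstream RNA was lower more often in the longer exposures. Between KCl times this split lay in genes with a mean under 4 TPM, and at 4 TPM or more 93 were higher and 97 lower. Genes with so little RNA may pass the filter only through the group where they are high. Downstream genes were higher in 69 and lower in 191 at 42 °C than at 44 °C, where all genes gave 37.9% and 37.2%, with a median log2 fold change of -0.33. On log2(TPM + 1) they were 36 and 256, with a median of -0.46 where all genes had -0.20. In H2O2, 103 were higher and 193 lower at 7 h than at 2 h (37.3% and 36.1%; median -0.32), and in KCl 118 and 162 (35.1% and 33.7%; median -0.26). The upstream genes of the same pairs gave 164 higher and 142 lower between the heat regimes (100 and 219 on log2(TPM + 1)), 152 and 133 between the H2O2 times and 149 and 142 between the KCl times. The 2 genes of a pair were also compared, first with stress set against control. The control libraries chose the pairs and the estimate is tied to downstream RNA, so these within-pair values are a description. The downstream gene had the greater fold change in 254 of 352 pairs at 44 °C (72.2%) and 179 of 352 at 42 °C (50.9%). In H2O2 it did so in 265 of 377 at 2 h (70.3%) and 212 at 7 h (56.2%). In KCl it did so in 235 at 2 h (62.3%) and 219 at 7 h (58.1%). In the other finite pairs the shares were 49.98% at 44 °C, 53.1% in H2O2 at 2 h, 52.7% in KCl at 2 h, 49.8% in KCl at 7 h, 52.2% in H2O2 at 7 h and 49.02% at 42 °C. In the comparisons of the longer with the shorter exposures it had the greater fold change in 119 of 352 (33.8%), 129 of 377 (34.2%) and 155 (41.1%), against 49.4%, 49.1% and 48.4% of the other pairs. Calls in opposite directions within a pair were counted against control, and so again as a description. Upstream was lower and downstream higher in 64 pairs at 44 °C (18.2%, other pairs 13.2%) and 55 in H2O2 at 2 h (14.6%, other pairs 7.18%). The reverse was called in 21 and 7 (5.97% and 1.86%; other pairs 13.03% and 6.07%). In KCl the counts were 49 and 14 at 2 h (13% and 3.71%, other pairs 6.23% and 5.07%). At 7 h of KCl they were 55 and 41 (14.6% and 10.9%, other pairs 11.9% and 11.97%). In H2O2 at 7 h they were 38 and 31 (10.1% and 8.22%, other pairs 12.15% and 11.97%). At 42 °C they were 34 and 40 (9.66% and 11.4%, other pairs 9.28% and 10.05%).

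Downstream genes with little RNA had a higher median fold change at the 2 h times. Genes near 0 in the control can hardly be called lower and can pass the filter on low counts through the stress group, so the same is given for other genes of that level. Of 142 downstream genes with a mean under 4 TPM over the 16 libraries, 88 were higher and 7 lower in H2O2 at 2 h, with a median log2 fold change of 1.34. Other genes under 4 TPM, those downstream in no member, were higher in 41.6% and lower in 7.42% (median 0.56). Of 244 downstream genes at 4 TPM or more, 88 were higher and 70 lower (median 0.04). Other genes at 4 TPM or more were higher in 22.3% and lower in 32.5% in H2O2 at 2 h. Their shares were 27.4% and 31.5% in KCl at 2 h, and 34.9% and 39.4% at 44 °C. In KCl at 2 h the counts were 68 and 18 (median 0.90) among the quiet genes and 90 and 70 (median 0.03) at 4 TPM or more, where other genes under 4 TPM gave 24.8% and 12.3% (median 0.18). At 44 °C, 66 of 123 quiet genes were higher and 7 lower (median 0.65), and 134 and 58 of the 244 (median 0.23), where other genes under 4 TPM gave 34.6% and 23.4% (median 0.16). By H2O2 at 7 h the quiet genes were at 43 higher and 19 lower, against 45.1% and 13.8% of the other genes of that level. Between H2O2 times, 24 quiet genes were higher and 85 lower at 7 h, against 32.7% and 36.9%. At 4 TPM or more 79 were higher and 108 lower, against 39.1% and 35.3%. Between KCl times the quiet genes gave 25 and 65, against 25.8% and 23.7%. Those at 4 TPM or more gave 93 and 97, against 38.1% and 36.3%. At 42 °C against 44 °C the quiet genes gave 18 and 60, against 17.1% and 43.6%. Those at 4 TPM or more gave 51 and 131, against 43.8% and 35.1%.

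Single genes with little RNA in the controls show the scale. Pygm, the muscle glycogen phosphorylase, lies 6369 bases past the splicing factor gene Sf1. It went from 0.26 and 0.57 to 22.1 and 21.5 TPM in KCl at 2 h (log2 fold change 5.86, SE 0.19). Slc5a5, the iodide transporter of the thyroid, rose in both experiments. Slc5a5 went from 0.33 and 0.27 to 4.09 and 4.5 TPM at 44 °C (3.83, SE 0.20) and 4.76 and 5.5 at 42 °C. In the other experiment it went from 0.32 and 0.38 to 7.86 and 10.7 TPM in H2O2 at 2 h. The tyrosine kinase gene Fes, 1239 bases past the protease gene Furin, was still raised at 7 h of KCl. It read 1.26 and 0.99 TPM in the control, 46.5 and 41.3 at 2 h and 11.9 and 14.99 at 7 h (3.59, SE 0.17). In each of these 3 genes the libraries of the groups just named lay above their control. The genes were picked for large changes against the controls that chose the pairs, where they stood at 1.26 TPM or less. Their values are therefore a description.

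Markers of other cell types and of fibroblasts moved in the same groups. Of the testable markers of other cell types, 4 of 6 were higher in H2O2 at 2 h and 5 of 6 at 7 h. In KCl 3 of 6 were higher at 2 h and 2 of 6 at 7 h, where 1 was lower. Heat gave 2 of 4 at 44 °C and 1 of 4 at 42 °C. Apart from Cd68, none was listed above 2.58 TPM. Other genes under 4 TPM were higher in 41.6% and 45.1% in H2O2 at 2 h and 7 h. They were higher in 24.8% and 31.2% in KCl, 34.6% at 44 °C and 13.4% at 42 °C. The shares of all genes called are those given for the upstream genes. All 11 fibroblast markers were lower at 44 °C (median -0.38) and in H2O2 at 7 h (median -1.18). At 42 °C 7 were lower and 2 higher, in H2O2 at 2 h 4 lower and 1 higher, in KCl at 2 h 0 lower and 6 higher, and in KCl at 7 h 6 lower and 4 higher. The part of either marker list in the results was not tested. In bulk RNA, fewer cells of a type and less RNA per cell cannot be told apart.

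Footprints report which of these downstream RNAs were on ribosomes, and they did not enter the rule. They were available in the H2O2 and KCl experiment and could be tested for 203 of the 384 downstream genes in the footprint table. The genes tested had a median control level of 18.4 TPM and those not tested 1.02 TPM, and 28 downstream genes had 0 footprints in all 10 libraries. The test therefore leaves out most of the quiet downstream genes. In H2O2 at 2 h, 3 genes were higher and 3 lower (all genes: 1.14% and 0.768%), although 59 of the 203 had higher RNA and 64 lower. Of the 59, 2 had higher footprints. The 59 had a median RNA log2 fold change of 0.50, and on simulated counts the footprint test of this group recovered 31.5% of 2-fold changes. Replicate 1 of this group is the shallowest library. The 6 calls became 3 without control replicate 1, 3 without H2O2 2 h replicate 2, and 0 without control replicate 2. In KCl at 2 h, 2 were higher and 11 lower (1.79% and 5.06%), with 69 genes higher in RNA, of which 2 were higher and 2 lower in footprints. Its 13 calls became 7 without control replicate 1, 7 without KCl 2 h replicate 1 and 5 without KCl 2 h replicate 2.

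Among these 203 genes the footprints followed the RNA more closely at 7 h. The counts of genes called in both RNA and footprints were not made over all genes. Whether the closer match is particular to these genes was not tested. In H2O2 at 7 h, 38 genes were higher and 13 lower (17.2% and 10.6%), and 36 of the 75 genes with higher RNA were also higher in footprints. In KCl at 7 h, 16 were higher and 19 lower (10.5% and 9.83%), and 16 of the 86 with higher RNA were higher in footprints. Between the times, 38 were higher and 16 lower at 7 h of H2O2 than at 2 h (18.7% and 11.1%), and 22 and 17 in KCl (12.1% and 8.43%). Without H2O2 7 h replicate 2, the 51 calls against control became 30 and the 54 between times 31. The 35 calls in KCl at 7 h became 13 without control replicate 2, 17 (9 higher and 8 lower) without KCl 7 h replicate 1 and 14 (11 and 3) without its replicate 2; the 39 between KCl times became 20 without KCl 2 h replicate 2, and 16 and 25 without KCl 7 h replicates 1 and 2. The Spearman rho of RNA and footprint fold changes over the 203 genes was 0.29 and 0.32 at 2 h of H2O2 and KCl and 0.76 and 0.69 at 7 h; each gene's 2 fold changes share no library, but the genes share all of them.

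**Figure D5:**
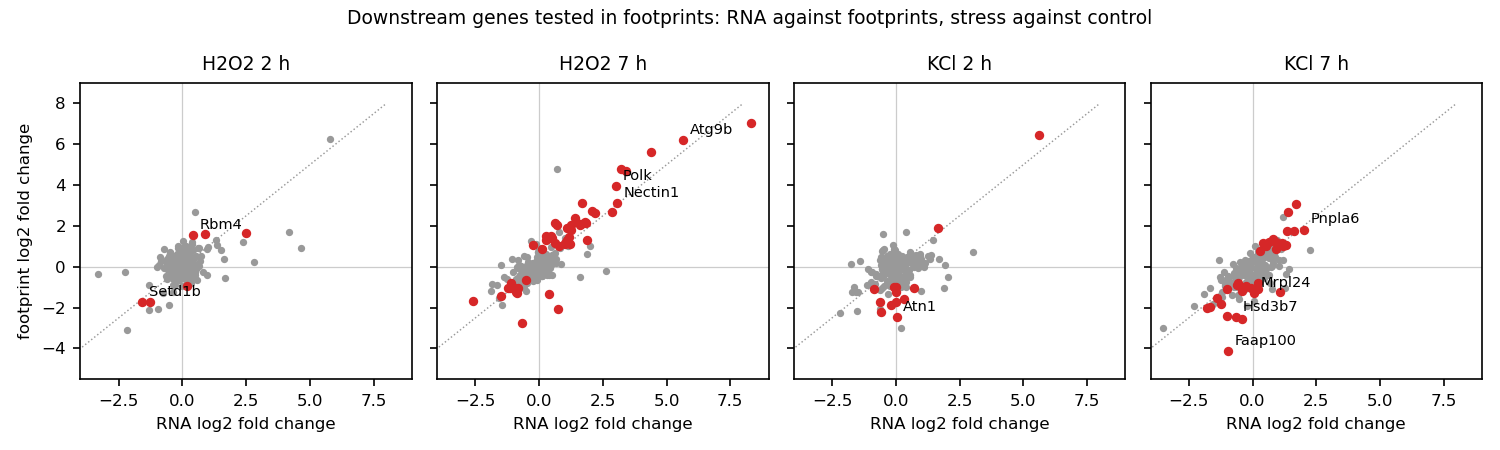
Log2 fold change in footprints against that in RNA for the 203 downstream genes that could be tested, one panel for each stress of the H2O2 and KCl experiment; the dotted line marks equal change and red points were called in footprints (adjusted p under 0.05, edgeR). The points lie along the line at 7 h, with Atg9b, Polk and Nectin1 at the upper end in H2O2. Faap100 and Hsd3b7 lie far below it in KCl, where the efficiency change of Hsd3b7 was not a call.

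Translational efficiency, the footprint change beyond the RNA change, was tested as an interaction term over both kinds of library. In H2O2 at 2 h, 12 genes were higher and 16 lower (all genes: 3.98% and 7.46%). In KCl at 2 h, 9 were higher and 27 lower (3.58% and 9.18%). At 7 h the counts were 15 and 6 in H2O2 (4.69% and 4.57%) and 1 and 9 in KCl (1.69% and 3.88%). Between times, 16 were higher and 2 lower at 7 h of H2O2 (4.93% and 2.27%), and 12 and 8 in KCl (3.88% and 2.96%). A voom fit with weights by kind of library called 13 genes in place of 28 in H2O2 at 2 h, 13 in place of 36 in KCl at 2 h, 13 in place of 21 and 4 in place of 10 at 7 h, and 7 in place of 18 and 4 (1 higher and 3 lower) in place of 20 between times. Leaving out single libraries gave 12 to 37 calls in H2O2 at 2 h (fewest without RNA control replicate 1), 8 to 17 at 7 h (fewest without the same library), 19 to 33 in KCl at 2 h (again that library) and 4 to 13 at 7 h. Between times it gave 2 to 29 in H2O2 (2 without RNA H2O2 7 h replicate 1, 29 without footprint H2O2 2 h replicate 2) and 8 to 21 in KCl. The RNA control libraries, which chose the pairs, enter this term.

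Atg9b, Polk and Nectin1 rose in both RNA and footprints at 7 h of H2O2. Atg9b, an autophagy membrane protein downstream of Cdk5, went from 6 and 2 to 299 and 249 footprint counts, a log2 fold change of 6.20 (SE 0.39, adjusted p 4.11e-07) beside 5.66 in RNA. Polk, a polymerase that copies damaged DNA, went from 37 and 37 to 472 and 561 counts (3.94, SE 0.25, adjusted p 4.11e-07; RNA 3.02). Nectin1, a cell adhesion protein, lies 400949 bases past Trim29, whose RNA stayed at or below 0.79 TPM, and rose by 3.13 (SE 0.26, adjusted p 2.31e-06) beside 3.06 in RNA. Irf9, the interferon-response factor 310 bases past Rnf31, rose in footprints from 48 and 34 to 156 and 147 counts (2.03, SE 0.27, adjusted p 1.27e-04) and in efficiency by 1.33 (SE 0.25, adjusted p 0.00286). The read-in estimate of its pair was 0.224 and 0.261 in the control and 0.0922 and 0.121 at 7 h of H2O2. Arhgef19, a guanine nucleotide exchange factor, rose by 3.13 in footprints, 1.68 in RNA and 1.46 (SE 0.20, adjusted p 4.70e-04) in efficiency.

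Pygm and Slc5a5, whose RNA rose at 2 h, gave few footprints. Pygm counts were 0 and 0 in the control, 5 and 4 in H2O2 at 2 h and 1 and 2 in KCl at 2 h, and Slc5a5 counts in these groups were 1 and 0, 3 and 12 and 1 and 0. With counts this low no fold change is given. A downstream gene with a large footprint decrease at 2 h was Atn1. Atn1, the transcriptional corepressor atrophin-1 downstream of Eno2, had 274 and 316 footprint counts in the control and 43 and 39 in KCl at 2 h, with pair estimates of 0.0249 and 0.0426 and of 0.0490 and 0.0608. Its log2 fold change was -2.45 (SE 0.23, adjusted p 1.05e-04) in footprints and 0.04 in RNA, and efficiency changed by -2.51 (SE 0.21, adjusted p 2.52e-06). Rbm4, an RNA-binding splicing regulator downstream of Rbm14, rose in H2O2 at 2 h by 1.56 (SE 0.26, adjusted p 0.00869) in footprints and by 1.14 in efficiency. Its footprint call was lost on log2(TPM + 1) (limma, adjusted p 0.0501) and, with edgeR, without H2O2 2 h replicate 2 (adjusted p 0.0548), control replicate 1 (0.0537) or control replicate 2 (0.0762).

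In KCl at 7 h, 12 of the 19 genes called lower in footprints lay in pairs whose estimate was above both controls by 2-fold or more. Among the 66 testable genes of such pairs, 2 were higher and 12 lower in footprints, with medians of -0.48 in footprints and -0.29 in RNA, where 18 were higher and 34 lower. Among the 74 whose estimate overlapped the controls 9 were higher and 6 lower, and among the 22 whose estimate lay below both controls 5 were higher and 0 lower. In H2O2 at 7 h, 17 of the 50 genes whose estimate lay below both controls were higher in footprints and 1 was lower, and of the 53 above both controls 6 were higher and 5 lower. At 2 h of KCl, 0 were higher and 2 lower of 75 genes above both controls by 2-fold or more, and 1 and 4 of 79 overlapping the controls. At 2 h of H2O2, the 63 genes above both controls by 2-fold or more had a higher median in footprints, 0.27, with 0 higher and 1 lower. The 83 overlapping the controls had a median of -0.04, with 3 higher and 1 lower. The groups were formed from the estimate, which is tied to downstream RNA, so these counts are a description.

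Faap100, Mrpl24 and Hsd3b7, downstream in the 3 pairs with the largest estimate increase over control in KCl at 7 h, all fell in footprints. Faap100 went from 59 and 56 counts in the control to 20 and 28 at 2 h of KCl and 2 and 3 by 7 h. Its log2 fold change at 7 h was -4.14 (SE 0.53, adjusted p 2.87e-04) in footprints, -0.96 in RNA and -3.21 (SE 0.54, adjusted p 0.00232) in efficiency. Mrpl24 footprints went from 221 and 156 to 38 and 88 counts (-1.28, SE 0.25, adjusted p 0.00447) while its RNA log2 fold change was 0.06 (SE 0.07). Hsd3b7 went from 33 and 24 to 5 and 3 counts (-2.46, SE 0.52, adjusted p 0.00621), beside -0.65 in RNA. Its efficiency change of -1.82 was not a call (edgeR, adjusted p 0.0669). In each of these 3 genes the KCl 7 h counts lay below both controls. Pnpla6, the lysophospholipase also called neuropathy target esterase, rose in footprints by 1.82 (SE 0.22, adjusted p 1.96e-04) and in RNA by 2.01. Gabarap, whose pair read 0.0947 and 0.115 there, had 425 and 635 footprint counts against 500 and 447 in the control.

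The genes that cut, polyadenylate and end transcripts were called higher more often than lower in both heat groups and in KCl at 7 h; the shares over all genes are those given for the upstream genes. Of 41 tested, 44 °C gave 23 higher and 9 lower, 42 °C gave 25 and 6, and the counts were 27 and 9 in KCl at 7 h, 10 and 10 in KCl at 2 h, 8 and 9 in H2O2 at 2 h, and 8 and 13 in H2O2 at 7 h. Pcf11, which joins the polymerase to the cleavage machinery and helps to release it, was among those higher in H2O2 at 2 h (1.78, SE 0.09, adjusted p 1.80e-09), as was the cleavage stimulation factor subunit Cstf3 (1.11, SE 0.06, adjusted p 3.82e-09). Other genes of the list were lower in H2O2 at 2 h, among them Cstf1 (-0.53, SE 0.07) and Clp1 (-0.74, SE 0.09). The rise of Pcf11 was not limited to H2O2, with 1.76 in KCl at 2 h, 0.50 at 44 °C and 0.53 at 42 °C. At 7 h of H2O2 the fold changes of Pcf11 and Cstf3 against control were -0.11 and -0.19. Xrn2, the exonuclease that chases the polymerase, was 0.07 at 2 h of H2O2, not a call, and 0.32 (SE 0.07, adjusted p 6.88e-04) at 7 h. Pcf11, Cstf3 and Xrn2 were picked for their known roles, and Cstf1 and Clp1 as lower genes of the list, all after their values had been seen.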

How the data were processed

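The members and the gene lists were chosen with earlier results of these data known. Per the submitters' processing notes, the tools were Bowtie, STAR and RSEM and the build mm10; the notes state no roles or versions. The authors deposited RSEM expected counts and TPM per gene for RNA and for footprints. Per the file headers, the authors also deposited a read-in estimate per pair and RNA library, used here as a ratio, and true or false calls of DoGs and read-in, without stating their criteria. In these files, 12 columns match no sample described here and were not used. Pairs with an infinite or missing estimate in a library were left out of that estimate comparison.

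Expected counts, not rounded, were tested with edgeR 4.0.16 (quasi-likelihood, TMM, low counts removed by filterByExpr) in R 4.3.3, with Benjamini-Hochberg adjustment. Each fit took all groups of an experiment: 12747 genes in heat RNA, 13256 in H2O2 and KCl RNA and 10545 in footprints. Translational efficiency was the interaction of library kind and stress over 20 libraries (10480 genes). Estimates were tested with limma 3.58.1 on log2(estimate + 0.01), which understates the change of low values, over pairs finite in every library of an experiment and above 0.01 in at least 2 (1525 in heat, 1936 in H2O2 and KCl). An adjusted p under 0.05 was a call. Alternatives were DESeq2 1.42.0 on rounded counts, no filter, log2(TPM + 1), only the groups compared, a replicate block, each library left out and, for efficiency, voom. On simulated counts the RNA test at 44 °C, run on 12616 genes, recovered 89.2% of 2-fold changes. The RNA test in H2O2 at 2 h, run on 12812 genes, recovered 84.5%. The footprint test in H2O2 at 2 h, run on 10312 genes, recovered 31.5% of 2-fold and 83.7% of 4-fold changes. The efficiency test in KCl at 2 h, run on 10217 genes, recovered 55.3% and 90.7%. The estimate test between H2O2 times, run on 1936 pairs, recovered 11.1% and 45.5%. Among calls, the false share was 8% in RNA at 44 °C and 10.7% in RNA of H2O2 at 2 h. It was 7.5% in footprints, 1.36% in efficiency and 6.25% in estimates.

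Pairs were named by rule: the 6 highest control estimates, the 3 nearest the threshold on each side, up to 10 called read-in in a control, the 3 largest differences each way per stress, up to 3 calls per comparison of stresses, footprints or efficiency, the 2 highest and 2 lowest called upstream and downstream genes (average log2 CPM of at least 1) per stress, and up to 3 pairs called in opposite directions. Pairs printed as sequence, other than Mafg>Sirt7 and Ccdc28b>Iqcc, were added after their values were seen, for short gaps and read-in calls in 3 or 4 controls, and promoters were not printed.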

Additional observations from a re-analysis of the deposited data

Results flagged for a closer look

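The results below are differences between stress groups that passed their own test, edgeR for RNA and footprints and limma for estimates, with adjusted p under 0.05. Such counts are not read as particular to the members, since many features outside them were called too. Downstream RNA of the members differed in 260 of 367 genes between 42 °C and 44 °C. It differed in 296 of 386 between 7 h and 2 h of H2O2, and in 280 of 386 between 7 h and 2 h of KCl. Of all genes, 37.9%, 37.3% and 35.1% were higher and 37.2%, 36.1% and 33.7% lower in these comparisons. Footprints of the downstream genes differed in 54 of 203 genes between the H2O2 times and in 39 between the KCl times. Of all genes, 18.7% and 12.1% were higher and 11.1% and 8.43% lower. The read-in estimate differed in 67 of 382 members between the H2O2 times and in 40 between the KCl times. All pairs tested were higher in 2.01% and 2.74% and lower in 24.4% and 18.9%. Between H2O2 and KCl it differed in 28 members at 2 h and 50 at 7 h. All pairs gave 6.71% and 2.22% higher and 8.99% and 7.64% lower. Between the heat regimes it differed in 2 of 399 members, where all pairs gave 3.93% higher and 3.02% lower.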

How the results depend on the processing

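No called gene or pair that is named changed its sign. The side with more calls turned in 21 of 330 alternatives, in 11 of 35 counts. For downstream RNA these were H2O2 at 7 h on log2(TPM + 1) and with only the groups compared (119 higher and 120 lower in place of 132 and 108; median -0.03 without H2O2 7 h replicate 1), and KCl at 7 h on log2(TPM + 1). For upstream RNA they were the H2O2 times (136 and 146 in place of 152 and 133), the heat regimes and 44 °C (166 and 121 in place of 143 and 146) on log2(TPM + 1), and 44 °C with only the groups compared and without 44 °C replicate 1. Others were footprints in KCl at 7 h without either KCl 7 h replicate, estimates between the heat regimes at 1 TPM or more, between KCl times without either KCl 2 h replicate and between agents at 2 h without KCl 2 h replicate 1. Efficiency turned in H2O2 at 2 h without footprint H2O2 2 h replicate 2 (20 and 17 in place of 12 and 16), and between KCl times with voom and without any of 5 libraries. Restricting downstream genes to a mean of 4 TPM or more, chosen after seeing the data, left 158 of 253 calls in H2O2 at 2 h, 160 of 246 in KCl at 2 h and 187 of 296 between H2O2 times. Footprints in H2O2 at 2 h gave 1 call on log2(TPM + 1) and 10 without a filter, in place of 6. The voom fit of efficiency gave 13, 13 and 7 calls in H2O2 (2 h, 7 h, between times) and 13, 4 and 4 in KCl. Estimates between the heat regimes gave 22 calls at 1 TPM or more, 11 with a pseudocount of 0.1, and 0 without a filter or with a replicate block. Median estimate differences were 0.15, 0.39 and 0.29 with a pseudocount of 0.1 in H2O2 at 2 h and KCl at 2 h and 7 h, and 0.15 at 44 °C; 0.49 in KCl at 7 h with 0.001; and 0.36, 0.31 and 0.49 in H2O2 at 2 h, 44 °C and KCl at 7 h with members chosen by the other experiment's controls, chosen after seeing the data. The cause of these moves was not tested.

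Leaving out each library gave 424 to 486 members, since the rule then rests on 3 controls. Calls of upstream RNA ranged from 262 to 281 at 44 °C, 231 to 248 at 42 °C, 285 to 294 between them, 170 to 216, 266 to 272 and 247 to 266 in H2O2 (2 h, 7 h, between times) and 183 to 238, 267 to 271 and 258 to 280 in KCl. Calls of downstream RNA ranged from 240 to 259, 184 to 211 and 228 to 249 in heat, 215 to 233, 206 to 222 and 266 to 279 in H2O2, and 212 to 228, 219 to 228 and 253 to 266 in KCl. Footprint calls ranged from 0 to 5, 30 to 38 and 31 to 43 in H2O2 and 5 to 9, 13 to 25 and 16 to 27 in KCl. Efficiency calls ranged from 12 to 37, 8 to 17 and 2 to 29 in H2O2 and 19 to 33, 4 to 13 and 8 to 21 in KCl. Estimate calls ranged from 24 to 66 between H2O2 times, 15 to 27 between KCl times, 5 to 17 and 30 to 41 between agents at 2 h and 7 h, and 0 to 3 between heat regimes. Median estimate differences ranged from 0.15 to 0.39 at 44 °C, 0.11 to 0.46 at 42 °C, 0.14 to 0.60 and -0.15 to 0.39 in H2O2, and 0.43 to 0.87 and 0.28 to 0.83 in KCl.

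Replicate numbers are shared between groups. Deviations of same-numbered libraries correlated from -0.179 to 0.185 in RNA. In footprints they correlated from 0.182 to 0.42 among control, KCl and H2O2 7 h, and from -0.398 to -0.037 with H2O2 2 h. Not every correlation was above 0.1, so the numbers were not taken to pair libraries. With the replicate as a block, footprint calls in KCl at 2 h were 15 in place of 13, efficiency calls in H2O2 at 2 h 33 in place of 28 and estimate calls between H2O2 times 57 in place of 67.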
